A study of Prunus yedoensis with 90 samples.

Results

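Buds of the Yoshino cherry collected in early to mid March 2019, before flowering, were compared with buds of the same trees collected in early June 2018. The comparison used 12 of the 90 libraries of the study, 6 from March and 6 from June, chosen by their labelled tissue and sampling month. The other 78 libraries, 54 of them from buds and 24 from leaves, served as background for the seasonal course and for the estimate of spread. 'Somei-yoshino' is a flowering cherry (labelled Prunus yedoensis) that is multiplied by grafting, so the trees are copies of 1 clone. The trees, for which no treatment is labelled, stood outdoors in Fukuoka in the south of Japan, in Tsukuba and at Sapporo in Hokkaido in the north, with 2 trees at each site. Tree age was not given in the sources used here. Fukuoka buds were taken on 7 June and 13 March, Tsukuba buds on 6 June and 6 March, and Hokkaido buds on 4 June and 7 March, which puts 279, 273 and 276 days between the paired collections. Each library was made from total RNA of buds cut from the sunlit crown around midday and kept in an RNA-stabilizing reagent, and was sequenced in read pairs. In bulk bud RNA, fewer cells of a type and less RNA per cell cannot be told apart.

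Cherry trees form next year's buds in summer. Flower primordia are laid down inside scales, growth stops in autumn, and the bud enters a dormancy that is released only after a long period of cold. After that chilling the bud waits for warmth, swells and opens in spring, with the flowers ahead of the leaves. In Prunus, a cluster of MADS-box transcription factor genes known as DORMANCY-ASSOCIATED MADS-box genes is linked to the depth of dormancy, and FLOWERING LOCUS T-like genes, abscisic acid and gibberellin genes and cold-response genes are linked to its entry and exit. The deposited table gives gene identifiers that the files do not pair with gene names, so the members of those families could not be located and genes are given here by identifier only. Identifiers carry either the letters SPA or SPE and a digit, which the sources used here do not explain.

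Levels are in TPM (a unit of transcript abundance scaled to gene length and to the library's sum), and differences are on the scale of log2(TPM + 1), which understates changes of low genes. Of 95076 identifiers, 40161 had a mean of at least 1 TPM over the 66 bud libraries and were tested. A gene was called when the adjusted p of limma (a linear model with variances shared over genes, Benjamini-Hochberg adjustment over all tested genes) was under 0.05 and the mean change over the 3 sites was at least 1 on the log2 scale. TPM keeps no record of sequencing depth, so the depth behind each value is unknown.

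Across genes, the correlation of log2 levels was 0.897 to 0.982 between June buds (median 0.923, 15 pairs) and 0.905 to 0.980 between March buds (median 0.931, 15 pairs). Between a March and a June bud it was 0.757 to 0.860 (median 0.810, 36 pairs). These pairs share the same genes and some share a tree, and the values are descriptions. Among all bud libraries, the June library of Fukuoka replicate 2 was closest to the August library of Hokkaido replicate 2 (0.9695), just above its same-date partner (0.9687). The March library of Hokkaido replicate 2 stood apart from the other 5 March libraries. It listed 38613 genes over 1 TPM, against 39754 to 40376 in the others, and its 100 most abundant genes held 15.3% of all TPM, against 10.6% to 11.7% in the others. March libraries listed 39814 ± 622 genes over 1 TPM and June libraries 38683 ± 346 (mean ± SD, n = 6 trees each). The March value was higher in 5 of 6 trees, by 1131 on average (exact sign-flip permutation test over trees, two-sided, p = 0.0625, 0.09375 after adjustment over 2 measures, smallest possible p 0.03125). The share of TPM in the 100 most abundant genes was 14.1 ± 0.916% in June and 12.0 ± 1.66% in March, lower in March in 5 of 6 trees (exact permutation p = 0.09375, the same after adjustment). The exception in both measures was Hokkaido replicate 2. Neither difference passed 0.05. Without that tree the mean differences were 1450 genes and -2.82 percentage points, with exact permutation p = 0.0625 for each, the smallest that 5 trees can give.

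Between June and March, 7392 of the 40161 tested genes changed (18.4%). Of these, 4182 were higher in March (10.4% of tested genes) and 3210 were lower (7.99%). Larger changes were more often losses. A change of at least 2 on the log2 scale was found for 593 genes that rose and 926 that fell, one of at least 3 for 189 and 288, and one of at least 5 for 20 and 35. At the other end, the 95% interval of the change lay within ±0.5 for 11762 genes (29.3%) and within ±1 for 27356 genes (68.1%). Leaving out each tree in turn, the Hokkaido tree that stood apart included, gave 7343 to 7548 called genes.

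**Figure D1:**
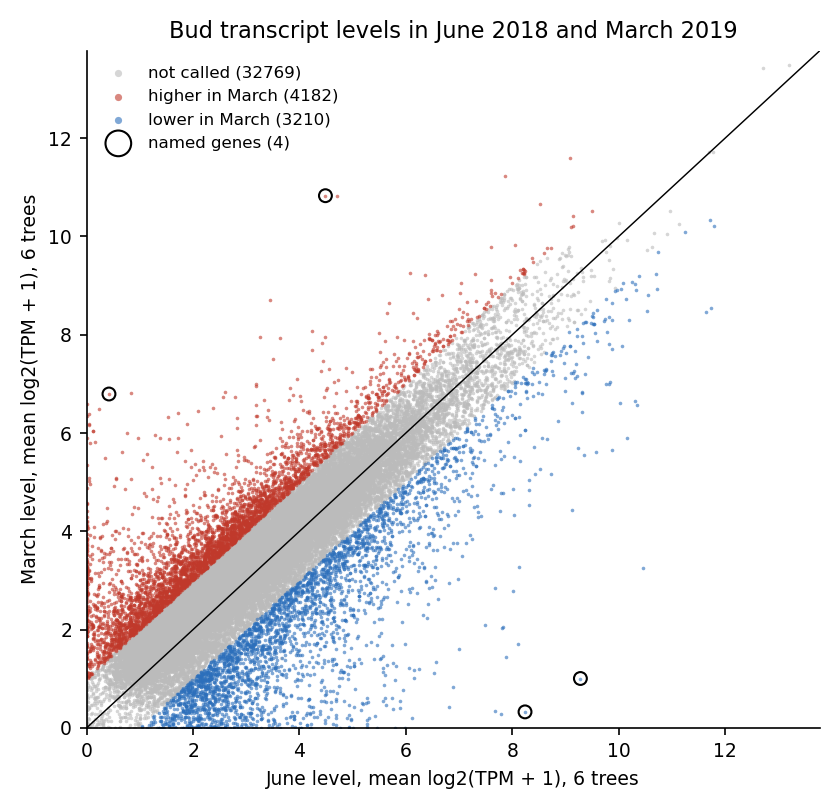
Mean bud level of each tested gene in June 2018 (x axis) and March 2019 (y axis), both as log2(TPM + 1) averaged over 6 trees, with 1 point per gene. Red points mark the 4182 genes called higher in March, blue points the 3210 called lower and grey points the other 32769, the line marks equal levels, and circles mark the 4 genes named for the comparison over all sites.

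The balance of gains and losses depended on how libraries were scaled to each other. As deposited, the median gene was 0.19 higher in March on the log2 scale, and 56.6% of calls were gains. After quantile normalization, 3253 genes were called higher and 3830 lower (45.9% gains, median change 0.05). After each library was divided by its median level, 2804 were called higher and 4087 lower (40.7% gains, median change 0.01), which gives the counts relative to the shift of the median gene. The direction of the split therefore flipped with scaling. The excess of losses among changes of at least 2 was present in all 3 versions, with 511 gains and 1078 losses after quantile normalization and 466 gains and 1166 losses after median scaling.

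All 6 trees gave the same sign of change for 3566 of the genes that rose (85.3%) and for 2635 of the genes that fell (82.1%), against 17908 of all tested genes (44.6%). For 3121 of the genes that rose (74.6%) every March library was above every June library, where 20.7% of all tested genes showed that pattern. For 2127 of the genes that fell (66.3%) every March library was below every June library, where 8.73% of all tested genes did. These genes were selected for their change, so the shares describe the calls and do not test them. The median change of the genes that rose was 1.37 in both Fukuoka trees, 1.29 and 1.21 in the Tsukuba trees and 1.50 and 1.37 in the Hokkaido trees. For the genes that fell it was -1.57 and -1.62 in Fukuoka, -1.54 and -1.52 in Tsukuba and -1.55 and -1.92 in Hokkaido, where the lower value belonged to replicate 2.

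The genes that fell took a large part of the June transcript pool. Their summed TPM was 20.4 ± 1.06% of the total in June and 5.85 ± 0.719% in March (mean ± SD, n = 6 trees). The 4182 genes that rose held 5.24 ± 0.527% in June and 16.1 ± 1.34% in March. Per tree, the June share of the genes that fell lay between 18.9% and 21.6% and their March share between 5.02% and 6.74%. Both sets were chosen for their June and March levels in these libraries, so the shares of TPM describe them and test nothing. Of the 100 most abundant genes of June and of March, 37 were on both lists. Of the June list, 65 were called lower in March and 1 was called higher. Of the March list, 34 were called higher and 6 were called lower. Each list was chosen by the level at 1 of the dates, which favours losses in the June list and gains in the March list, and the shares over all tested genes were 7.99% lower and 10.4% higher. The June list held 13.3% of TPM in June and 7.78% in March.

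Among genes with a mean of 100 TPM or more over the 12 libraries, 196 of 1627 rose (12.0%) and 238 fell (14.6%). Among those between 20 and 100 TPM, 767 of 8728 rose (8.79%) and 743 fell (8.51%). Among those between 5 and 20 TPM, 1913 of 17158 rose (11.1%) and 1201 fell (7.00%). Among those between 1 and 5 TPM, 1277 of 11961 rose (10.7%) and 1010 fell (8.44%). Under 1 TPM the shares were lower, with 29 of 687 genes rising (4.22%) and 18 falling (2.62%). A mean under 1 TPM in June was found for 827 of the 4182 genes that rose. In March it was found for 843 of the 3210 genes that fell. Among all 40161 tested genes, 2148 were under 1 TPM in June and 1547 in March. The choice of the genes favours low levels at those dates. Genes with SPA and SPE identifiers behaved alike, with 10.4% of each called higher, and 7.91% of SPA and 8.08% of SPE genes called lower.

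CYE_r3.1SPE2_g016690.1 had the largest gain among genes that met the naming rule, which asked for a mean of at least 5 TPM and the same sign in every tree. In June it was listed at 0 in 5 trees and at 4.72 TPM in Hokkaido replicate 1. In March it stood at 65.4 and 52.7 TPM in Fukuoka, 120 and 162 TPM in Tsukuba and 136 and 192 TPM in Hokkaido. Every March library was far above every June library, and the Fukuoka buds were the lowest in March. The change was 6.37 (SE 0.30) on the log2(TPM + 1) scale (limma, Benjamini-Hochberg adjusted p = 1.50e-18), and it did not differ detectably between sites (adjusted p of the F test 0.315). The gene moved from rank 40667 by mean level in June to rank 1266 in March. The winter maximum was above the March level in every tree, and came in December in the Fukuoka trees (288 and 238 TPM) and the Hokkaido trees (839 and 1015 TPM) and in January in the Tsukuba trees (1320 and 1642 TPM). The 4 April libraries held 342 ± 177 TPM (SD, n = 4 trees). It was listed at 0 in all 6 June leaf libraries.

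CYE_r3.1SPE0_g010990.1 stood at rank 8 by mean level among all identifiers in March buds. June levels were 37.7 and 27.1 TPM in Fukuoka, 11.8 and 9.82 TPM in Tsukuba and 72.7 and 10.5 TPM in Hokkaido. March levels were 539 and 571 TPM in Fukuoka, 2123 and 2407 TPM in Tsukuba and 3288 and 7089 TPM in Hokkaido. The dates did not overlap, and March levels were lowest in Fukuoka and highest in Hokkaido. The change was 6.35 (SE 0.29, limma adjusted p = 1.09e-18). It differed between sites (limma F test, adjusted p = 0.000362): 4.07 in Fukuoka, 7.59 in Tsukuba and 7.37 in Hokkaido. The mean level was 2046 ± 582 TPM in November, 4917 ± 3864 TPM in December and 5439 ± 2696 TPM in January (SD, n = 6 trees), with the December level above the January level in the Fukuoka and Hokkaido trees and below it in the Tsukuba trees. Another identifier, CYE_r3.1SPE0_g020140.1, followed it across bud libraries with a correlation of 0.998 at a similar level, so reads may have been shared between these entries and their split is uncertain.

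CYE_r3.1SPE3_g011810.1 was the largest loss. June levels were 309 and 336 TPM in Fukuoka, 1158 and 1188 TPM in Tsukuba and 568 and 705 TPM in Hokkaido. March levels were 1.67 and 5.76 TPM in Fukuoka, 0.159 and 0.576 TPM in Tsukuba and 0 and 0.974 TPM in Hokkaido. The dates were far apart in every tree, with the Fukuoka buds the lowest in June and among the highest in March. The change was -8.28 (SE 0.27, limma adjusted p = 1.78e-22), and it differed between sites (limma F test, adjusted p = 0.000368): -6.25 in Fukuoka, -9.76 in Tsukuba and -8.82 in Hokkaido. Its mean level was 744 TPM in July, 223 TPM in August and 2.68 TPM in October, and it was listed at 0 in all 6 February libraries.

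CYE_r3.1SPA8_g014780.1 fell nearly as far but later. June levels were 176 and 849 TPM in Fukuoka, 129 and 182 TPM in Tsukuba and 568 and 374 TPM in Hokkaido. In March it was at 0.945 and 0.984 TPM in Fukuoka and listed at 0 in the 4 trees of the other sites. The June libraries were spread widely within and between sites, yet none came near a March library. The change was -7.91 (SE 0.35, limma adjusted p = 3.11e-19), with no detectable difference between sites (F test adjusted p = 0.269). The level was still 418 ± 220 TPM in August and 221 ± 168 TPM in October, was 44.9 ± 35.3 TPM in November, and was 0 in February (n = 6 trees each). In June leaves it was 0.217 ± 0.315 TPM (n = 6). All 4 genes kept their calls in each of the 18 other settings tried.

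**Figure D2:**
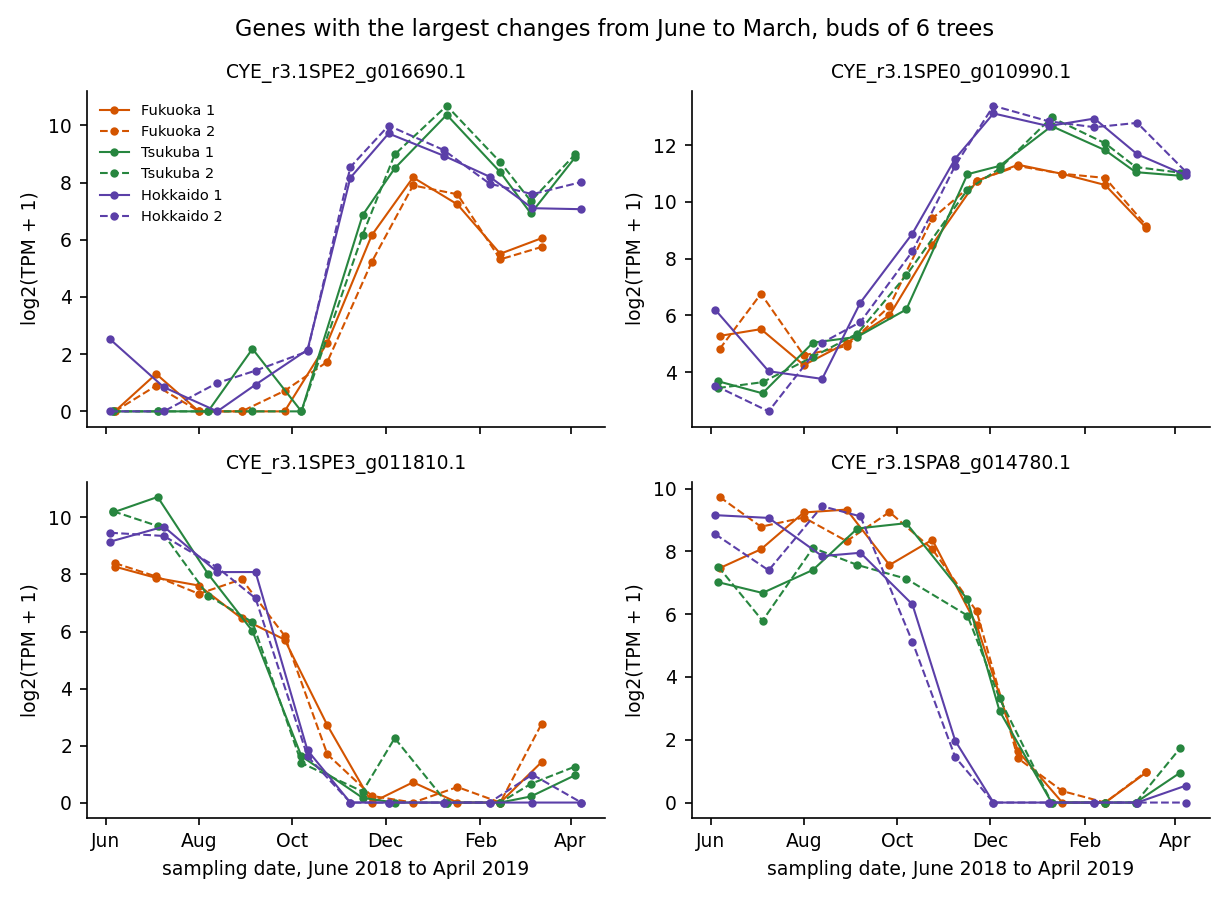
Level of the 4 genes as log2(TPM + 1) at each bud collection from June 2018 to April 2019, with 1 line per tree, colour for the site and line style for the replicate. The upper pair climbs between October and December and is lower in March than in January, and the lower pair declines between August and December, with CYE_r3.1SPE3_g011810.1 ahead of CYE_r3.1SPA8_g014780.1.

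A few genes were listed at 0 in every library of 1 date and at 1 TPM or more in every library of the other. There were 18 such genes present only in the March libraries and 27 present only in the June libraries, with median levels of 5.32 and 6.13 TPM where present. These are 0.0189% and 0.0284% of all identifiers. Without the Hokkaido tree whose March library stood apart, 0.109% of identifiers were present only in March, and without Hokkaido replicate 1, 0.0841% were present only in June. Of the 18, 3 had a mean over 1 TPM by September, 7 by October, 13 by November and 16 in February, and none did in June leaves. Of the 27, 25 were still over 1 TPM in August, 15 in October, 5 in December and 2 in February, and 12 were over 1 TPM in June leaves.

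The number of genes that differed from June was not largest in March. Set against the same June libraries with the same rule, 487 genes differed in July (1.21%), 2528 in August (6.29%), 3050 in September (7.59%), 4484 in October (11.2%), 6149 in November (15.3%) and 8872 in December (22.1%). The count was 12546 in January (31.2%) and 11511 in February (28.7%), before the 7392 of March. The January difference comprised 4817 gains (12% of tested genes) and 7729 losses (19.2%). All these contrasts share the June libraries, so their counts stand side by side and are not independent. The order of the months by total count was the same after quantile normalization and median scaling, with 12120 and 12716 in January and 10853 and 10975 in February.

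Genes that fell had mostly been lost before midwinter. Their median level was 3.84 on the log2(TPM + 1) scale in June, 3.67 in August, 2.80 in October, 1.73 in December, 1.48 in February and 1.93 in March. In January, 2706 of the 3210 genes (84.3%) were already at least 1 below their June level, 476 were within 1 of it and 28 were at least 1 above it. Among all tested genes, 19.3% were at least 1 below June in January. The month of the lowest mean was January for 1389 of the 3210 genes (43.3%) and March for 715 (22.3%). The month of the highest mean was June for 1484 (46.2%), July for 741 and August for 717. Among all tested genes January was lowest for 25.5%, March lowest for 8.07% and June highest for 14.0%. The genes were chosen as high in June and low in March, so these shares describe them and test nothing.

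Genes that rose differed in when they did so. Their median level was 2.20 in June, 2.79 in October, 3.20 in January, 3.53 in February and 3.69 in March. In January, 1902 of the 4182 genes (45.5%) were at least 1 above June, 2105 (50.3%) were within 1 of it and 175 (4.18%) were at least 1 below it. Among all tested genes these shares were 12.0%, 68.7% and 19.3%. The June libraries enter both the choice of the genes and these classes. The 1902 genes already high in January had a median of 3.95 in that month, 4.06 in February and 3.73 in March. The 2105 genes near their June level in January, with a median of 2.56, reached 3.06 in February and 3.56 in March. The 175 genes had dipped in midwinter, from 3.00 in June to 1.29 in January, and stood at 2.20 in February and 4.56 in March. March was the month of the highest mean for 2106 of the 4182 genes (50.4%), February for 1143 (27.3%) and January for 466 (11.1%). Among all tested genes these shares were 22.8%, 22.9% and 12.2%, with those of February and January near the background. The genes were chosen as high in March and low in June, which favours March as the highest month. The shares by month therefore describe them and test nothing.

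**Figure D3:**
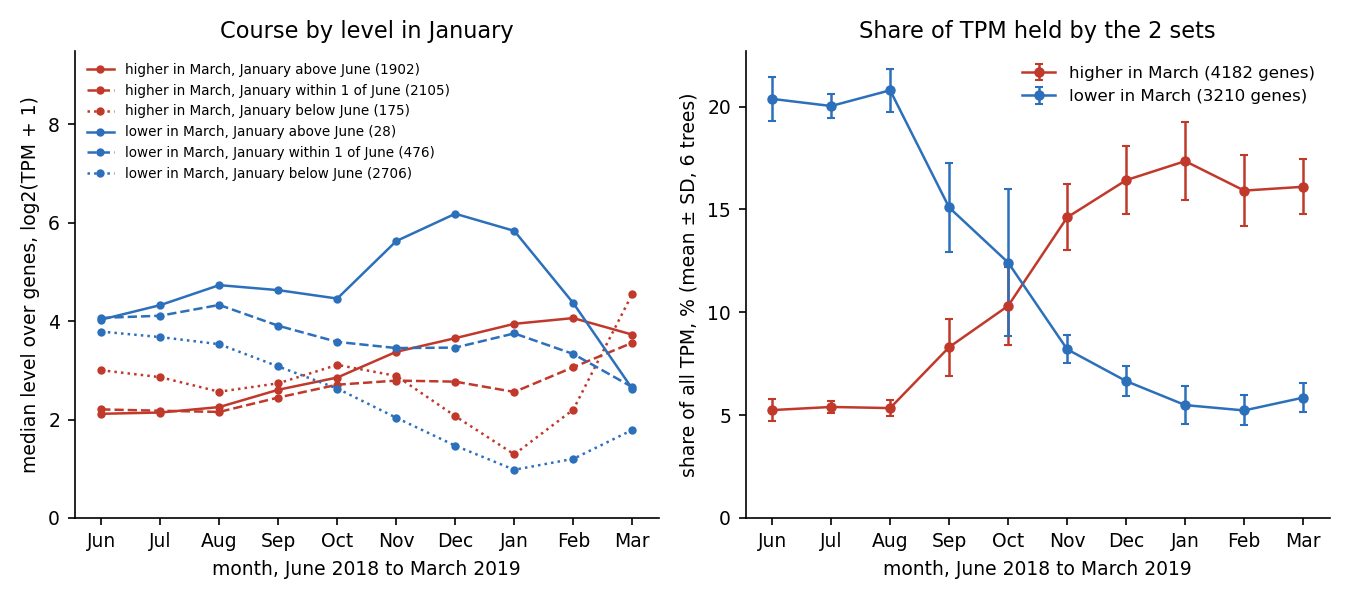
Left, median level over genes as log2(TPM + 1) in each month from June to March for genes higher (red) and lower (blue) in March, split by whether their January level was at least 1 above, within 1 of or at least 1 below June, with the number of genes in the key. Right, share of all TPM held by the genes of each direction, mean ± SD over 6 trees: genes higher in March go from 5.24% in June to 16.1% in March and genes lower in March from 20.4% to 5.85%. Both sets were chosen by their June and March levels, which favours these shifts.

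April buds were collected in Tsukuba and Hokkaido only, from 2 trees each. The genes that rose had a median change of -0.31 from March to April in Tsukuba and of -0.13 in Hokkaido, where all tested genes had medians of -0.21 and -0.13. The genes that fell had medians of 0.10 and 0.05. These April differences were not tested. Compared with June, the genes that rose were still 0.98 higher in the median in Tsukuba in April and 1.28 higher in Hokkaido, where all tested genes had medians of 0 and 0.05. The genes that rose were chosen as low in June and high in March. That choice favours both a level above June and a drop from March.

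June leaves of the same trees held the genes that fell at a median of 5.76 TPM and the genes that rose at 3.28 TPM, against 5.48 TPM for all tested genes. A leaf mean at least 1 below that of June buds was found for 1929 of the genes that fell (60.1%), for 771 of those that rose (18.4%) and for 25.6% of all tested genes. A leaf level of 100 TPM or more was found for 247 genes that fell (7.69%), 120 that rose (2.87%) and 3.44% of all tested genes. June bud libraries enter both the choice of these genes and the contrast with leaves. The correlation with June leaf libraries across genes was 0.654 to 0.869 for June buds and 0.636 to 0.806 for March buds.

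Within single sites, more genes passed the rule than in the mean over sites. With the adjusted p alone the order was reversed, with 27530 genes over all sites and 21031, 20230 and 22002 in Fukuoka, Tsukuba and Hokkaido. In Fukuoka 9090 genes changed (22.6%), 5156 up (12.8%) and 3934 down (9.8%). In Tsukuba 8010 changed (19.9%), 4794 up (11.9%) and 3216 down (8.01%). In Hokkaido 9740 changed (24.3%), 5473 up (13.6%) and 4267 down (10.6%). Of the 4182 genes that rose in the mean over sites, 1596 were called higher in all 3 sites. Of the 3210 that fell, 1373 were called lower in all 3. Most genes of each set were thus not called at every site. The median change over sites was 1.31 for the genes that rose and -1.55 for those that fell. Many genes thus lay near the cutoff of 1, and a missed call at a site does not mean that the gene was unchanged there. Site by site, 3052, 2911 and 3297 of the genes that rose were called higher in Fukuoka, Tsukuba and Hokkaido. Of the genes that fell, 2458, 2319 and 2620 were called lower in the same order. The sets were chosen in the same libraries, so these counts describe them and test nothing. After median scaling, losses outnumbered gains at each site, with 45.0%, 40.5% and 44.0% of calls being gains in Fukuoka, Tsukuba and Hokkaido.

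Changes were more alike between trees of a site than between sites. Across tested genes, the change correlated at 0.868 between the Fukuoka trees, 0.875 between the Tsukuba trees and 0.805 between the Hokkaido trees, and at 0.525 to 0.657 between trees of different sites. For the genes that fell, the median SD of the change was 0.403 between trees of a site and 0.731 between site means. For the genes that rose these were 0.317 and 0.453, and for all tested genes 0.261 and 0.340. Collection dates differed by up to 7 days in March and 3 in June, and site and date cannot be told apart.

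The size of the change differed between sites for 8925 genes (22.2%, F test in limma, adjusted p under 0.05, and at least 1 between the most different sites). That test called 1675 of the genes that fell (52.2%) and 1298 of those that rose (31.0%). Both sets were chosen for a change of at least 1 in the same libraries, which favours passing the F rule. These shares therefore describe the sets and test nothing. The change differed between Tsukuba and Fukuoka for 4904 genes (12.2%), between Hokkaido and Fukuoka for 5260 (13.1%) and between Hokkaido and Tsukuba for 4106 (10.2%). Significant changes in opposite directions at different sites were found for 604 genes, of 15975 called at any site. The counts of pairwise differences depended on single trees: without Fukuoka replicate 1, 1950 genes differed between Tsukuba and Fukuoka and 3243 between Hokkaido and Fukuoka, without Tsukuba replicate 2, 2799 differed between Tsukuba and Fukuoka, and without Tsukuba replicate 1, 2702 differed between Hokkaido and Tsukuba. With the 12 March and June libraries alone, 5537 genes differed over the 3 sites, 3116 between Tsukuba and Fukuoka and 2470 between Hokkaido and Tsukuba.

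The largest gain of any site was in Fukuoka. CYE_r3.1SPA2_g038830.1 was listed at 0 in all 6 June libraries and reached 2590 and 3783 TPM in the Fukuoka March buds. In Tsukuba the March levels were 274 and 8.24 TPM, and in Hokkaido 31.1 and 0 TPM. Fukuoka trees were thus far above the rest, and the Tsukuba trees differed widely from each other. The change was 11.61 in Fukuoka (SE 0.89, limma adjusted p = 3.16e-12), 5.65 in Tsukuba and 2.50 in Hokkaido. April levels were 0 in both trees from Tsukuba, and 1002 and 5777 TPM in those from Hokkaido. The Tsukuba minus Fukuoka difference in change was -5.96 (SE 1.26, limma adjusted p = 0.00118), and its call ended without Tsukuba replicate 2 (adjusted p = 0.132) and with the 12 libraries alone (adjusted p = 0.124). CYE_r3.1SPE2_g032250.1, the other large Fukuoka gain at 1105 and 1638 TPM in March, followed it with a correlation of 0.999, so these entries may share reads. The Fukuoka losses named by the rule were CYE_r3.1SPA8_g010850.1, from 447 ± 68.4 to 0.922 ± 0.61 TPM (SD, n = 2), and CYE_r3.1SPA8_g014780.1, described above. The former fell at the other sites too, with changes of -7.89 in Fukuoka, -7.88 in Tsukuba and -3.56 in Hokkaido.

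In Tsukuba the largest gain was CYE_r3.1SPE1_g040210.1, listed at 0 in both trees in June and at 205 and 215 TPM in March (change 7.72, SE 1.44, limma adjusted p = 4.24e-05). The Fukuoka trees and Hokkaido replicate 1 had 169 to 225 TPM in March, but Hokkaido replicate 2 was listed at 0. There were 3 other identifiers that followed this gene with correlations of at least 0.99, so reads may have been shared between entries and the split, the 0 included, is uncertain. April levels were 0 in both Tsukuba libraries, and 26.5 and 75.0 TPM in Hokkaido. The largest Tsukuba losses were CYE_r3.1SPE3_g011810.1 and CYE_r3.1SPA5_g028700.1. The latter went from 3522 and 3083 TPM to 2.84 and 4.41 TPM (change -9.50, SE 0.48, limma adjusted p = 1.68e-16). It fell at the other sites too, with changes of -4.88 in Fukuoka and -7.19 in Hokkaido.

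In Hokkaido the gains named were CYE_r3.1SPE0_g010990.1 and the entry that followed it, CYE_r3.1SPE0_g020140.1, which went from 46.2 ± 43.8 to 5620 ± 2900 TPM (SD, n = 2). The losses named were CYE_r3.1SPA8_g014780.1 and CYE_r3.1SPE8_g024600.1. The latter stood at 1616 and 560 TPM in June and at 0 in both trees in March (change -9.89, SE 1.22, limma adjusted p = 3.01e-08). In Tsukuba it went from 139 and 168 TPM to 2.00 and 1.44 TPM. In Fukuoka it was at 60.9 and 24.4 TPM in June and at 25.3 and 29.3 TPM in March, a change of -0.49 that did not pass (limma adjusted p = 0.759). The Hokkaido change was 9.41 lower than the Fukuoka change (SE 1.72, limma adjusted p = 0.000158).

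Some genes moved in opposite directions at different sites. CYE_r3.1SPA7_g003380.1 was at 4.45 and 7.30 TPM in Fukuoka in June and at 304 and 305 TPM in March. In Hokkaido it was at 701 and 133 TPM in June and at 69.2 and 6.47 TPM in March. Both Fukuoka trees gained and both Hokkaido trees lost, and the Hokkaido change was 9.25 below that of Fukuoka (SE 0.99, limma adjusted p = 5.16e-08). CYE_r3.1SPE3_g027950.1 went the other way, from 496 and 130 TPM to 42.0 and 51.0 TPM in Fukuoka and from 10.4 and 2.44 TPM to 115 and 76.5 TPM in Hokkaido (difference 6.35, SE 1.15, limma adjusted p = 0.000141). CYE_r3.1SPE7_g010790.1 showed the same contrast, from 48.6 ± 2.14 to 2.43 ± 1.75 TPM in Fukuoka and from 5.97 ± 1.70 to 39.1 ± 29.8 TPM in Hokkaido (SD, n = 2 each).

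Hokkaido and Tsukuba differed most in 2 genes that were lost in Hokkaido. CYE_r3.1SPA0_g014300.1 stood at 198 and 357 TPM in Hokkaido in June and at 1.72 and 1.45 TPM in March. In Tsukuba it was at 0.291 and 0.580 TPM in June and at 8.38 and 4.12 TPM in March, a gain of 2.28. The difference was -8.97 (SE 0.77, limma adjusted p = 1.60e-09). CYE_r3.1SPE0_g170910.1 differed by -7.55 (SE 1.01, limma adjusted p = 4.39e-06), and another identifier followed it with a correlation of 1 at the same mean level of 13.4 TPM, so these entries may share reads. In the other direction, CYE_r3.1SPE4_g023580.1 rose from 2.54 and 1.09 TPM to 127 and 162 TPM in Hokkaido and was at 19.1 and 17.8 TPM in June and 20.6 and 18.6 TPM in March in Tsukuba (difference 5.65, SE 0.54, limma adjusted p = 1.89e-08).

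Tsukuba and Fukuoka differed most in CYE_r3.1SPA0_g068940.1, which was listed at 0 in Tsukuba in June and in Fukuoka in March. It was at 16.6 and 15.0 TPM in Fukuoka in June and at 14.6 and 19.6 TPM in Tsukuba in March. Hokkaido replicate 1 was at 11.2 TPM in June and 7.17 TPM in March, while Hokkaido replicate 2 was listed at 0 on both dates. Single bud libraries were listed at 0 in August, September and February too, when the highest levels were 18.9, 19.2 and 22.7 TPM. The Tsukuba minus Fukuoka difference in change was 8.24 (SE 1.47, limma adjusted p = 0.000214). CYE_r3.1SPE0_g129510.1 and CYE_r3.1SPA0_g161780.1 also passed there, with differences of 7.99 (SE 2.43, limma adjusted p = 0.0189) and -6.05 (SE 2.11, limma adjusted p = 0.0400). In each of them 1 tree of a site was listed at 0 in June while its partner was at 18.0 to 27.0 TPM. These calls ended in some other settings, among them leaving out single trees: the limma adjusted p of CYE_r3.1SPE0_g129510.1 was up to 0.181 and that of CYE_r3.1SPA0_g161780.1 up to 0.403 over the 16 other settings. The Hokkaido minus Tsukuba difference of CYE_r3.1SPA0_g161780.1 was 6.53 (SE 2.11, limma adjusted p = 0.0303), and its adjusted p reached 0.337.

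**Figure D4:**
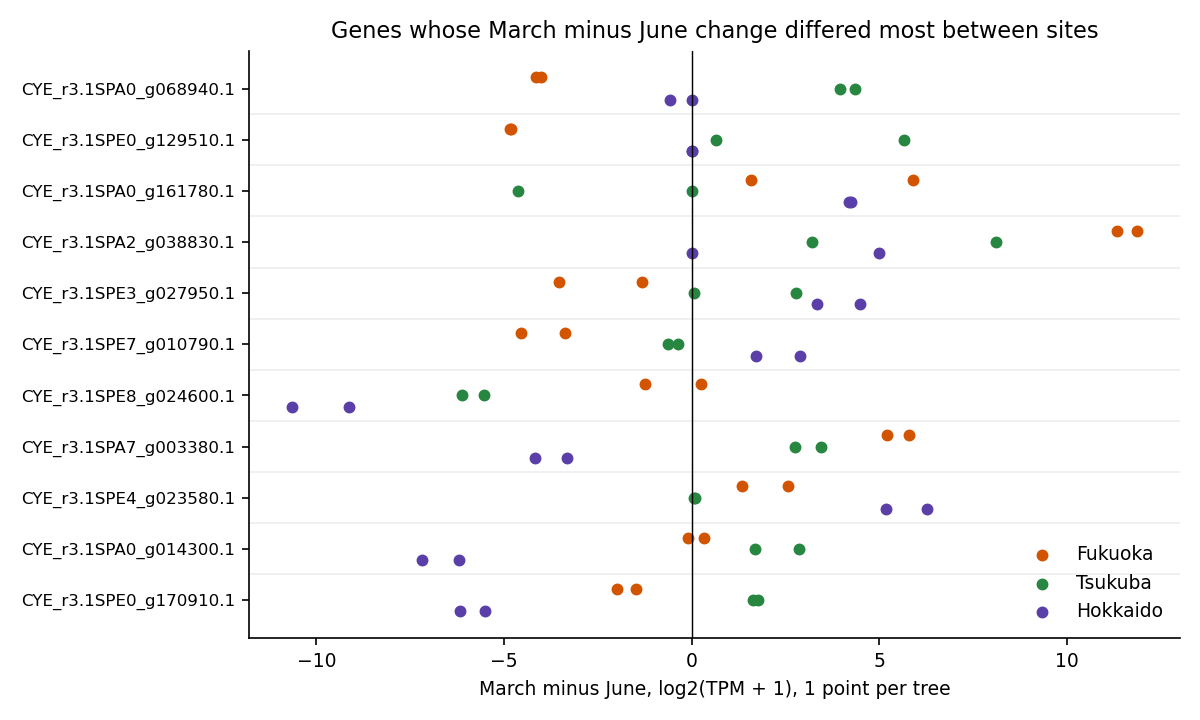
March minus June change on the log2(TPM + 1) scale for the 11 genes named for differences between sites, with 1 point per tree coloured by site. CYE_r3.1SPA7_g003380.1 has both Fukuoka trees above 0 and both Hokkaido trees below it, and CYE_r3.1SPE3_g027950.1 has the opposite arrangement.

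The running library numbers in the labels fall into separate series. For 4 trees the June and March libraries lie in different series, whereas for Tsukuba replicate 2 and Hokkaido replicate 2 both dates lie in the same one. In those 4 trees the series changes at the November or December collection. From then on, the monthly counts against June overlap with the change of series. The labels do not say what a series stands for. Within the 2 trees whose libraries belong to 1 series, 4524 genes were called, 2485 higher and 2039 lower, and 3690 of them were among the 7392. In the 4 trees whose series changed between the dates, 7288 were called, 4244 higher and 3044 lower. Fewer trees enter the former count. The genes named over all sites, in the order given above, changed by 7.47, 8.53, -9.02 and -8.03 in the 2 trees. In the 4 trees they changed by 5.83, 5.25, -7.90 and -7.86. Both Fukuoka trees are among the 4, so differences of Fukuoka from the other sites overlap with series. The part of the library series in the result was not tested beyond these values.

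Consecutive identifier numbers were looked at as a description. Of 2550 genes that rose and whose next-numbered identifier was tested, 396 had a neighbour that rose too (15.5%), against 10.5% of 24825 tested genes. Of 1822 genes that fell, 286 had a next-numbered neighbour that fell (15.7%), against 7.52%. Labels and headers do not say whether numbering follows chromosomal position, and neighbours that are copies of a gene could share reads.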

How the data were processed

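RNA from buds and leaves of 6 trees was sequenced in 90 libraries. The authors deposited 1 table with a TPM value for each of 95076 gene identifiers in each library. Per the submitters' processing notes, fastp 0.20.0, STAR 1.5.2 and StringTie 1.3.5 were used, with no role stated. No genome build or annotation release is named there or in the labels. A second deposited table with 58074 genes was not used, and 0 columns of unlisted samples were present. TPM keeps no depth, so no count model or counting interval was possible, and the number of trees limits the precision. Where TPM is forced to a fixed sum, a gain in abundant genes lowers the others.

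Values were put on the scale of log2(TPM + 1), and identifiers with a mean of at least 1 TPM over the 66 bud libraries were kept. The fit used limma 3.58.1 in R 4.3.3 with 33 site and date means and tree within site as a block (30 residual degrees of freedom). Contrasts averaged the 3 sites, took each site alone, or took differences between sites. Calls needed a Benjamini-Hochberg adjusted p under 0.05 and a change of at least 1. The tree is shared by both dates by design. Tree differences within a site in June and March correlated at 0.00422, 0.0533 and 0.0698 in Fukuoka, Tsukuba and Hokkaido. The limma p-values rest on the scatter between trees of a site, pooled over all bud dates, in trees of 1 clone. For the mean over the 3 sites they leave out the spread of the change between sites. Measures of whole libraries were tested with exact sign-flip permutations. The Fukuoka collection of 29 August entered the fit but not the monthly course. The scripts were tested on simulated data.

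Genes were named by rule: per comparison, the 2 largest positive and 2 largest negative called values among genes with a mean of at least 5 TPM and the same sign in every tree, or in every pairing of trees for differences between sites. Correlations between identifiers are over the 66 bud libraries. The comparison, rules and alternatives were chosen with earlier results of these data known. Alternatives were other pseudocounts, filters, scalings, thresholds, fits without the tree block or with the 12 libraries alone, and leaving out each tree.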

Additional observations from a re-analysis of the deposited data

Results flagged for a closer look

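Dixon's criterion was applied to 22 sets of 6 values (library measures, shares of TPM and the 4 genes named over all sites). By it, 5 values lay far from the other 5 of their set. Its chance rate of about 1 in 20 sets is for independent, normally distributed values. Some of these sets overlap and some hold repeated values of 0, so that rate does not apply here. Of the 5 values, 3 belong to Hokkaido replicate 2: its March library had 38613 genes over 1 TPM, its March minus June difference in that number was -465 while it was positive in the other 5 trees, and its 100 most abundant genes held 15.3% of TPM in March. The others are the June level of CYE_r3.1SPE2_g016690.1 in Hokkaido replicate 1, at 4.72 TPM with the other 5 trees listed at 0, and the March level of CYE_r3.1SPE3_g011810.1 in Fukuoka replicate 2, at 5.76 TPM.

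The March minus June change differed between sites by the limma tests of the difference itself for 8925 genes over the 3 sites, and for 4904 genes between Tsukuba and Fukuoka, 5260 between Hokkaido and Fukuoka and 4106 between Hokkaido and Tsukuba. Among the genes named over all sites, the changes of CYE_r3.1SPE0_g010990.1 and CYE_r3.1SPE3_g011810.1 spanned 3.51 between the most different sites for each. Tsukuba minus Fukuoka differences in change were 8.24 for CYE_r3.1SPA0_g068940.1, 7.99 for CYE_r3.1SPE0_g129510.1, -6.05 for CYE_r3.1SPA0_g161780.1 and -5.96 for CYE_r3.1SPA2_g038830.1. Hokkaido minus Fukuoka differences were 6.35 for CYE_r3.1SPE3_g027950.1, 6.27 for CYE_r3.1SPE7_g010790.1, -9.41 for CYE_r3.1SPE8_g024600.1 and -9.25 for CYE_r3.1SPA7_g003380.1. Hokkaido minus Tsukuba differences were 6.53 for CYE_r3.1SPA0_g161780.1, 5.65 for CYE_r3.1SPE4_g023580.1, -8.97 for CYE_r3.1SPA0_g014300.1 and -7.55 for CYE_r3.1SPE0_g170910.1. With 2 trees per site, each of these rests on 4 March and 4 June libraries.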

How the results depend on the processing

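Direction held for all named genes in the settings run. Without the replicate block for trees, 7390 genes were called, 7389 of them shared with the 7392; the block changed no call of a named gene over all sites. With a pseudocount of 0.1, 10064 genes were called (6141 higher, 3923 lower). With a filter of 5 TPM fewer genes are tested, and 4738 were called (2743 higher, 1995 lower), 5840, 5041 and 6329 in Fukuoka, Tsukuba and Hokkaido, and 2692 for Hokkaido against Tsukuba. With the adjusted p alone these became 27530 (17938 higher, 9592 lower), 21031, 20230 and 22002 at the sites, 14190 by the F test and 7935, 9696 and 6506 for Tsukuba against Fukuoka, Hokkaido against Fukuoka and Hokkaido against Tsukuba. With a change of at least 2 they were 1519 (593 and 926), 2075, 2053, 2355, 2997, 1534, 1469 and 1334 in the same order. With the 12 libraries alone, 5537 genes differed over sites, 3116 between Tsukuba and Fukuoka and 2470 between Hokkaido and Tsukuba. In the 2 trees of 1 library series, 4524 were called (2485 and 2039). Leaving out each tree gave 7343 to 7548 calls over all sites, 1950 to 5004 for Tsukuba against Fukuoka, 3243 to 5178 for Hokkaido against Fukuoka and 2702 to 3924 for Hokkaido against Tsukuba. Identifiers present on 1 date were then 0.0221% to 0.109% (March) and 0.0305% to 0.0841% (June), and 0.00105% and 0.00631% when 5 TPM was required. Genes over 10 TPM numbered 1619 more in March, and the share of TPM in the 1000 most abundant genes differed by -3.40 percentage points, each with the smallest exact permutation p of 0.03125. For these changes the cause was not tested. Depth is unknown, so low TPM values carry an unstated counting error.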
